A study of Rattus norvegicus with 50 samples.

Results

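The genes described here are the collagens, the matrix metalloproteinases (MMPs), the tissue inhibitors of metalloproteinases (TIMPs), the ADAMTS proteases with their ADAMTS-like relatives, and the lysyl oxidase family, in rat liver after a brain injury. They were chosen by symbol alone, as all single gene symbols that start with Col and a chain number, Mmp, Timp, Adamts or Lox, with the neutrophil collagenase Mmp8 left out. Each gene was represented by the probe with the highest mean. This gave 69 of the 14506 genes on the array: 25 collagens, 20 MMPs, 4 TIMPs, 14 ADAMTS genes and 6 genes of the lysyl oxidase family.

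Liver RNA from 50 male Sprague Dawley rats, about 3 months old, was hybridised to Rat Gene 1.0 ST arrays from Affymetrix, with 1 array per animal and 5 animals in each of 10 groups. The 5 sham animals were intact. The other 45 underwent controlled cortical impact, in which a piston bruises the surface of the brain, and were given saline vehicle, erythropoietin (EPO, the hormone that drives red blood cell formation, 2500 IU/kg) or anakinra (a recombinant antagonist of the interleukin-1 receptor, 100 mg/kg), with livers collected at 24 h, 72 h or 7 days. Punches of the median lobe supplied the RNA, and when and how often each drug was dosed is not stated in the sources used here. The sham group carries no time and no vehicle in its labels and served for all 3 times, so injury cannot be told apart from saline, handling or collection time, and no group received a drug without an injury.

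Collagens are the main fibrous proteins of the extracellular matrix. In the liver, fibrillar types I and III lie around portal tracts and central veins, type IV lies in the space beside the sinusoids, and hepatic stellate cells and portal fibroblasts are their chief source. MMPs are zinc proteases that degrade matrix proteins, TIMPs bind and block them, ADAMTS proteases cleave proteoglycans or trim procollagens, and lysyl oxidases cross-link collagen and elastin. The balance of these groups is known for its part in liver repair and fibrosis.

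All values are log2 RMA values, so a difference of 1 is a doubling, and levels are compared within a probe and not between genes. In limma, passing meant a Benjamini-Hochberg adjusted p below 0.05 over all 14506 genes, and each difference is the first group named minus the second. The 10 measured hepatocyte markers averaged 13.00 to 13.13 in the sham arrays, which is only a rough check of the liver label because levels depend on the probe. None of these markers passed between EPO and vehicle livers at 72 h. Array medians lay between 6.66 and 6.89. In 5 arrays, called narrow arrays here, the standard deviation over all probes (1.99 to 2.04) lay below that of the other 45 (2.06 to 2.16). With vehicle these were array 3 of 24 h, arrays 2 and 5 of 72 h and array 3 of 7 days, and with EPO array 3 of 7 days. The median of the 69 matrix genes was 6.99 to 7.15 in the narrow arrays and 6.74 to 7.14 in the others, while the median over all genes was 7.21 to 7.23 against 7.17 to 7.27. The limit fell in a small gap, between 2.040 and 2.057. Arrays just above it were kept, among them EPO array 1 of 72 h (2.066, with a matrix median of 7.11). Leaving out the narrow arrays at 24 h or 72 h therefore removed vehicle arrays only. For the main results of the 69 genes that rest on vehicle arrays, values without the narrow arrays are given too.

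**Figure D1:**
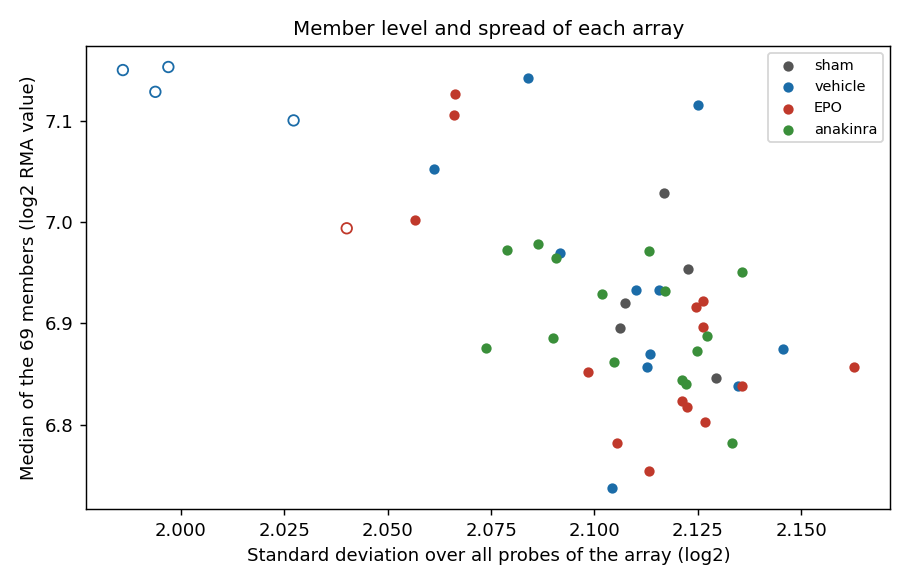
Median log2 RMA value of the 69 matrix genes (vertical axis) against the standard deviation over all probes of the same array (horizontal axis, log2), 1 point per array, coloured by treatment, with open circles for the 5 narrow arrays. The narrow arrays sit at the left, with matrix medians from 6.99 to 7.15.

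Of the 4 genes that carry the results below, Adamts9, Timp3 and Adamts1 had a promoter window in the RefSeq table of the rat assembly GRCr8. The fourth is Mmp9. The windows are shown because Timp3 and Adamts1 were both higher in EPO than in vehicle livers at 72 h and Adamts9 had the smallest p of the 69 in the F test over the 10 groups. Each window is 300 bases on the minus strand, most of them before the annotated start, written 5′ to 3′, with capitals at matches to the motifs searched.
Timp3, chr7:19459509-19459808: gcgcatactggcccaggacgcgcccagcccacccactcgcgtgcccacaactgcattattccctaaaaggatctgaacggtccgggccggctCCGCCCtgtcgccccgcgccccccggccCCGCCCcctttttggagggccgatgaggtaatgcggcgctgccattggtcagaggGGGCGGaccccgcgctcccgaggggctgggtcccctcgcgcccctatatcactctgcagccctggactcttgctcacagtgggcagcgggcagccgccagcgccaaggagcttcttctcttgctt
Adamts1, chr11:38427335-38427634: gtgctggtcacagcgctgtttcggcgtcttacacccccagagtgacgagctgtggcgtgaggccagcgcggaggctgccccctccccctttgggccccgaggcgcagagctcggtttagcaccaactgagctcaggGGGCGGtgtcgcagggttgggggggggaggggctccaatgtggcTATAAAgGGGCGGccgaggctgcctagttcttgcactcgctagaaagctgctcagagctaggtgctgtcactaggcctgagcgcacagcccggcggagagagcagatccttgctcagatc
Adamts9, chr4:127019827-127020126: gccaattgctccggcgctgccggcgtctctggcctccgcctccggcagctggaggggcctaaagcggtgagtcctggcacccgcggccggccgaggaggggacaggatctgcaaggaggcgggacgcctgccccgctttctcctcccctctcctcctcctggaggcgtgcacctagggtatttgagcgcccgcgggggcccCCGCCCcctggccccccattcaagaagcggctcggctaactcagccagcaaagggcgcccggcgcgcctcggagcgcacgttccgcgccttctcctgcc

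The motifs were searched on both strands, and none of them contains another: the AP-1 motif is TGANTCA, the STAT motif is TTCNNNGAA, the GATA motif is AGATAA, the E-box is CACGTG, the TATA motif is TATAAA and the GC box is GGGCGG. Timp3 had 3 GC boxes, Adamts1 had 2 and a TATA match, and Adamts9 had 1 GC box. Of all 33469 windows of 300 bases, 33.1% held a GC box, 14.2% a TATA match, 7.33% an AP-1, 8.87% a STAT, 11.6% a GATA and 6.42% an E-box match. Among the 54 windows of that length that belonged to the matrix genes, 27 held a GC box, 14 a TATA match, 7 an AP-1, 3 a STAT, 3 a GATA and 1 an E-box match. These are matches of letters within the window only.

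Probe levels depend on the probe as well as on the transcript, so they rank neither the genes nor the families. The spread within groups had a median residual standard deviation of 0.16 for the 69 genes and 0.17 for all genes. Lox had a residual standard deviation of 0.81 that exceeded those of 99.9% of genes, followed by Loxl4 with 0.40 (98.4%).

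Several of the genes neighbour each other in the RefSeq gene order. A run on chromosome 8 held 8 of the MMPs, Mmp13, Mmp12, Mmp3, Mmp1, Mmp10, Mmp27, Mmp20 and Mmp7, with at most 1 other protein-coding gene between neighbours. None of these 8 passed in any comparison of 2 groups. In each such comparison 0% to 3.46% of all genes passed, so this is not read as particular to the run. Adamts1 and Adamts5 were adjacent on chromosome 11, and Col3a1 with Col5a2 and Col4a4 with Col4a3 were adjacent pairs on chromosome 9. Of the Adamts1 and Adamts5 pair, only Adamts1 passed between EPO and vehicle at 72 h (0.36 against 0.082 for Adamts5), and the difference between the pair was not tested.

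Few of the matrix genes passed in any comparison. Vehicle-treated injured livers differed from sham livers in 1 of 69 at 24 h (Adamts9, lower), in 0 at 72 h and in 0 at 7 days. The background over all genes was 0.827% at 24 h, 0% at 72 h and 0% at 7 days. At an unadjusted p under 0.05 the matrix genes numbered 12, 7 and 2 at the 3 times, which is 17.4%, 10.1% and 2.90% of them beside 15.9%, 12.1% and 6.52% of all genes, and limma with array weights gave the same counts of 1, 0 and 0. EPO livers differed from vehicle livers at the same time in 0 of 69 at 24 h (background 0.0276%), in 4 of 69 at 72 h (background 2.72%) and in 0 at 7 days (background 0.365%). At an unadjusted p under 0.05 they numbered 9, 25 and 3, or 13.0%, 36.2% and 4.35% of the matrix genes beside 10.8%, 20.0% and 4.97% of all genes, and array weights gave 0, 2 and 0 adjusted calls. The 4 that passed at 72 h were Timp3, Mmp9 and Adamts1, which were higher, and Col8a1, which was lower. Anakinra livers differed from vehicle livers in 0 of 69 at each time by limma (background 0%, 0% and 0.0138%), and array weights also gave 0 at each time. At an unadjusted p under 0.05 they numbered 1, 14 and 2, or 1.45%, 20.3% and 2.90% beside 4.25%, 10.7% and 7.62% of all genes. Vehicle arrays 2 and 5 of 72 h, used for both drugs, were narrow, and no unadjusted count was taken without the narrow arrays. Of the 69 matrix genes, 26 lay above the median level of all genes, so these shares compare genes of unlike levels.

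Over the 3 times together, 1 matrix gene (Timp3) passed between EPO and vehicle (background 2.41%) and 0 passed between anakinra and vehicle (background 0.0551%, and 0 when arrays were weighted). Unadjusted, 26 did with EPO (37.7% beside 20.5% of all genes) and 22 with anakinra (31.9% beside 21.4%). The comparisons of both drugs with vehicle at a time share the 5 vehicle arrays of that time, and all comparisons with sham share the same 5 sham arrays. EPO against sham gave 1 gene at 24 h (Adamts9, background 0.434%), 1 at 72 h (Mmp9, background 3.46%) and 0 at 7 days (background 2.86%, 9 unadjusted beside 18.3% of all genes). Anakinra against sham gave 0 at 24 h (background 0.193%, 6 unadjusted beside 6.28% of all genes), 0 at 72 h (background 0.110%, 1 unadjusted beside 5.78%) and 1 at 7 days (Adamts7, background 1.83%). EPO against anakinra gave 0 at 24 h (background 0.0207%, 3 unadjusted beside 1.69% of all genes), 1 at 72 h (Mmp9, background 1.94%) and 0 at 7 days (background 0.441%, 2 unadjusted beside 6.58%). When arrays were weighted, these counts of 0 became 1 for anakinra against sham at 24 h and at 72 h and stayed 0 for the others.

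The F test over the 10 groups passed for 3 matrix genes, Adamts9, Mmp9 and Timp3 (background 5.67%). The F test over the 3 vehicle groups passed for Adamts9 (background 0.0689%). The tests of whether a drug difference depended on time passed for 0 matrix genes with EPO (background 0.214%, 7 unadjusted beside 8.47% of all genes) and 0 with anakinra (background 0%, 1 unadjusted beside 2.77%), and array weights also gave 0 for both. A difference between EPO and vehicle that passed at 72 h and not at another time was therefore not shown to differ between times.

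**Figure D2:**
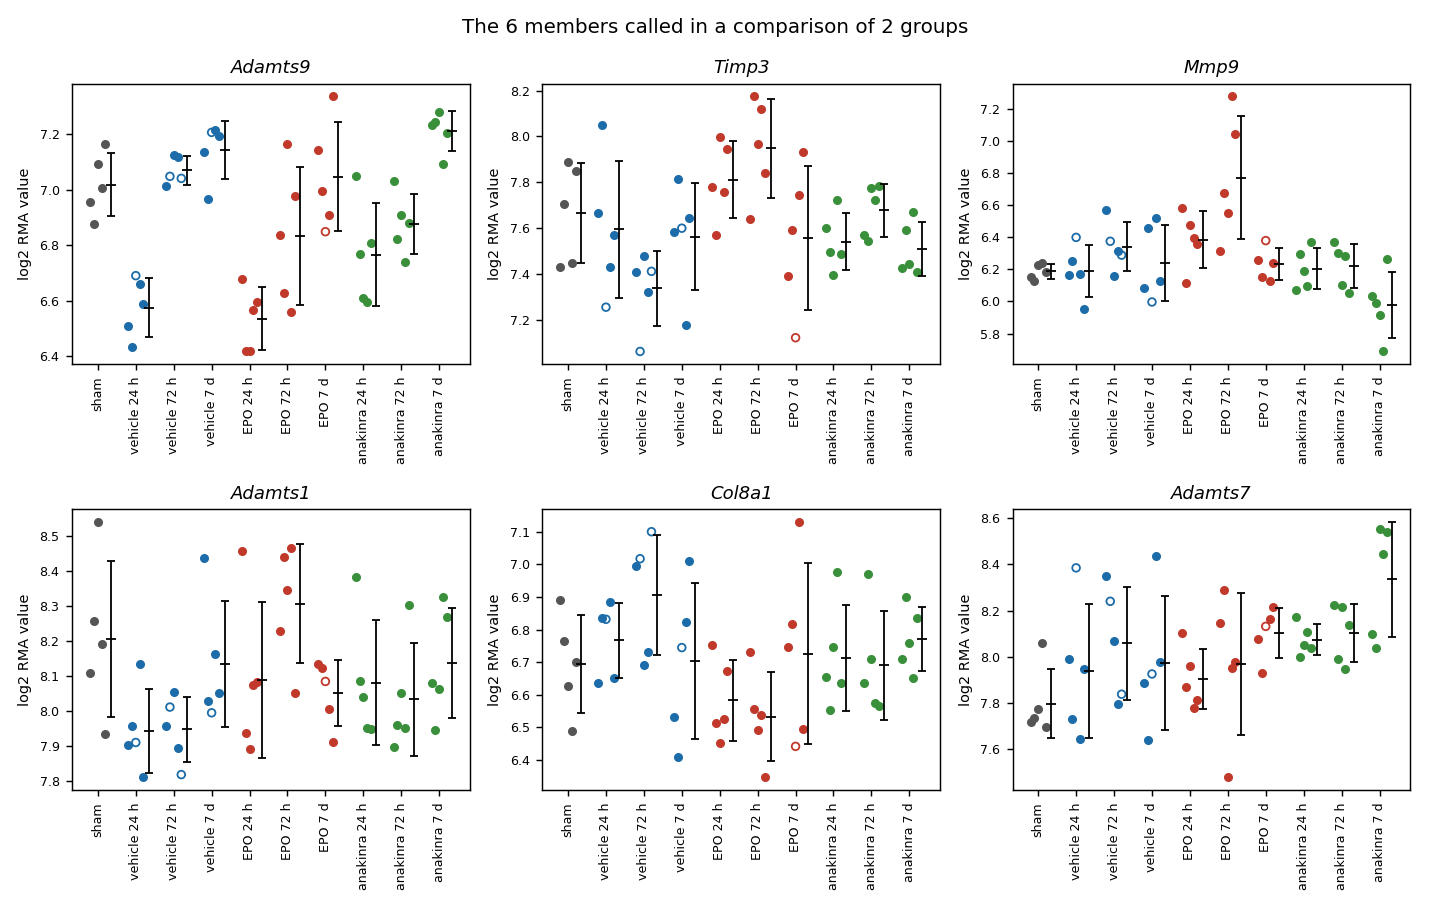
Log2 RMA values (vertical axes) of the 6 genes that passed in a comparison of 2 groups, 1 point per array in each of the 10 groups (horizontal axes), with the mean and standard deviation beside the points and open circles for the narrow arrays. Adamts9 is low in the vehicle and EPO groups at 24 h, Mmp9 and Timp3 are high in the EPO group at 72 h, and Adamts7 is high in the anakinra group at 7 days.

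Of the 25 collagen chains measured, 1 passed in a comparison of 2 groups. In each such comparison 0% to 3.46% of all genes passed, so this count is not read as particular to collagens. The gene was Col8a1, which encodes a short-chain network collagen of vessel walls and basement membranes. It was lower in EPO than in vehicle livers at 72 h (background 2.72%). Its values were 6.99, 7.02, 6.69, 6.73 and 7.10 in the vehicle arrays and 6.73, 6.56, 6.49, 6.54 and 6.35 in the EPO arrays. The highest EPO array lay within the vehicle range and the other 4 lay below every vehicle array. The difference was -0.37 (SE 0.11, adjusted p = 0.0477). Sham arrays, at 6.89, 6.76, 6.63, 6.49 and 6.70, overlapped with both groups. The call for Col8a1 was lost without the narrow arrays (-0.27, adjusted p = 0.40), after a further quantile normalization (adjusted p = 0.0951), with array weights (0.189) and with only the groups compared in the fit (0.245). It was also lost when any 1 of vehicle arrays 1, 2 and 5 or of EPO arrays 2, 3, 4 and 5 was left out (adjusted p up to 0.167).

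The fibrillar collagens, which form the banded fibres of scar and portal tracts, gave no call between EPO and vehicle livers at 72 h, with adjusted p from 0.136 to 0.390 in limma, and all 10 differences were negative. They ran from -0.26 to -0.13 with a median of -0.21, beside -0.14 for all 69 matrix genes and -0.026 for all genes. Col1a1, the alpha-1 chain of type I collagen, was 8.36, 8.39, 8.03, 8.03 and 8.52 in the vehicle arrays at 72 h and 8.17, 8.03, 8.08, 8.03 and 7.72 in the EPO arrays. The groups overlapped, with 1 EPO array below all vehicle arrays (-0.26, SE 0.11, adjusted p = 0.184). Col1a2, its partner chain, differed by -0.15 (adjusted p = 0.390) and Col3a1, of type III collagen, by -0.13 (adjusted p = 0.360). Without the narrow arrays Col1a1 differed by -0.13, Col1a2 by -0.055, Col3a1 by -0.18 and Col5a2, a type V chain that sets fibril width, by -0.0061.

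Against sham, the collagens of vehicle livers gave no call at 24 h, 72 h or 7 days. The median difference of the 10 fibrillar genes was 0.15 at 24 h and 0.13 at 72 h. Col5a2 had the smallest p at 72 h, with sham values of 7.30, 7.28, 7.17, 7.24 and 7.26 and vehicle values of 7.40, 7.66, 7.36, 7.36 and 7.74. All 5 vehicle arrays lay above all sham arrays, and the highest were the narrow arrays 2 and 5. The difference was 0.25 (SE 0.075, adjusted p = 0.396) and was 0.12 without the narrow arrays. Of the 25 collagens, 12 had their highest group mean in vehicle livers at 24 h, 5 in vehicle livers at 72 h, and 14 had their lowest in EPO livers at 72 h. Among all 69 matrix genes these numbers were 19, 16 and 22. They were not counted over all genes or without the narrow arrays, so they are not read as particular to collagens.

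The other collagens gave no call. Col4a1, a type IV chain of basement membranes, differed by -0.14 between EPO and vehicle at 72 h (adjusted p = 0.304) and by -0.20 between anakinra and vehicle (adjusted p = 0.454). The fibril-associated Col14a1 had a difference of 0.16 at 72 h (adjusted p = 0.278), and was the only collagen with a positive difference between EPO and vehicle then. Its EPO arrays read 8.76, 8.76, 8.78, 8.83 and 9.04, and its vehicle arrays 8.61, 8.53, 8.80, 8.73 and 8.71. At 7 days Col14a1 differed between vehicle and sham by 0.19 (adjusted p = 0.757). Col16a1, another fibril-associated chain, had the smallest p between EPO and vehicle at 24 h (-0.28, adjusted p = 0.442, and -0.18 without the narrow array), with all 5 EPO arrays below all vehicle arrays.

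**Figure D3:**
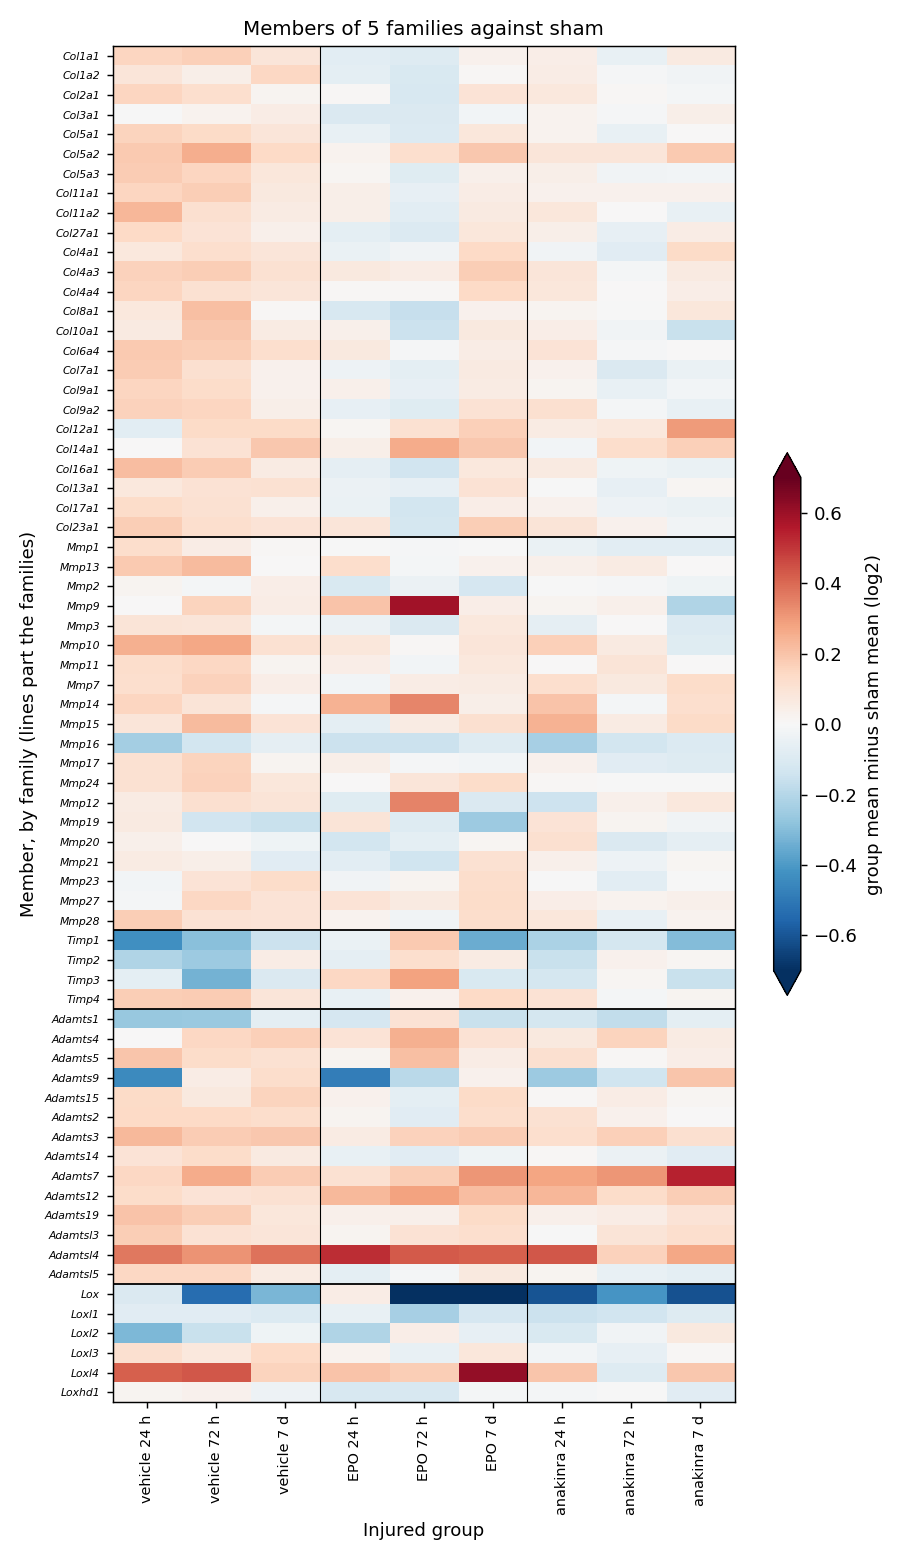
Group mean minus sham mean (colour, log2) of the 69 genes (rows, by family) in the 9 injured groups (columns), with the colour bar ending before the values of Lox in the EPO groups at 72 h and 7 days. Most collagen rows are pale, and the strongest colours belong to Adamts9, Mmp9, Lox, Loxl4, Adamtsl4 and Adamts7.

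Among the 20 MMPs, the gelatinase gene Mmp9 was the 1 that passed in comparisons of 2 groups. In each of these 0% to 3.46% of all genes passed, so the count is not read as particular to MMPs. Mmp9 encodes MMP-9, which cleaves denatured collagen and type IV collagen and is stored in neutrophil granules. Its sham values were 6.15, 6.13, 6.23, 6.24 and 6.18. At 72 h the vehicle arrays read 6.57, 6.37, 6.16, 6.31 and 6.29, the EPO arrays 6.32, 6.68, 6.55, 7.28 and 7.04, and the anakinra arrays 6.37, 6.30, 6.10, 6.28 and 6.05. All 5 EPO arrays lay above all sham arrays, 4 above all anakinra arrays and 3 above all vehicle arrays, and EPO arrays 4 and 5 were far above the rest. EPO livers were higher than vehicle livers by 0.43 (SE 0.12, 1.35-fold, adjusted p = 0.0341), than sham livers by 0.59 (adjusted p = 0.00136) and than anakinra livers by 0.55 (adjusted p = 0.00387). At 24 h the difference between EPO and vehicle was 0.20 (adjusted p = 0.505) and at 7 days -0.0076. The dependence on time gave an adjusted p of 0.585.

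The call for Mmp9 between EPO and vehicle at 72 h was lost without the narrow arrays (0.42, adjusted p = 0.121) and with only the groups compared (0.397), and also when any 1 of vehicle arrays 2, 3 and 5 or of EPO arrays 2, 4 and 5 was left out (adjusted p up to 0.167). Those against sham (0.0533) and anakinra (0.145) were lost with only the groups compared. Of 14 measured markers of neutrophils, 5 passed as higher between EPO and vehicle at 72 h (background 2.72%, both directions). Between EPO and sham at 72 h, 8 of them passed as higher (background 3.46%, both directions). Their mean level was 6.12 to 6.22 in sham arrays, 6.23 to 6.51 in vehicle and 6.06 to 6.47 in anakinra arrays at 72 h, and 6.5 to 7.39 in EPO arrays. The part of these cells in the Mmp9 result was not tested, and more cells of a type cannot be told apart from more RNA per cell in a bulk sample.

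Mmp2, the other gelatinase, which stellate cells make, had group means between 7.94 and 8.10 and differed by -0.027 between EPO and vehicle at 72 h (95% interval -0.18 to 0.13). At 7 days it had the smallest p between EPO and vehicle (-0.16, adjusted p = 0.979). Mmp14, the membrane-bound activator of pro-MMP-2, was 8.61, 9.33, 9.09, 8.75 and 9.06 in the EPO arrays at 72 h and 8.71, 8.44, 8.84, 9.20 and 8.40 in the vehicle arrays. The groups overlapped (0.25, adjusted p = 0.249), and without the narrow arrays the difference was 0.054. Mmp12, macrophage elastase, differed by 0.24 (adjusted p = 0.290), and 0.34 without the narrow arrays. Mmp13, the main interstitial collagenase of rodents, read 3.73 to 4.34 over the 50 arrays and differed by -0.23 (adjusted p = 0.195), and by -0.15 without the narrow arrays. Mmp19, a broad matrix protease, had group means from 9.54 in EPO livers at 7 days to 9.89 in anakinra livers at 24 h, and differed between EPO and sham at 7 days by -0.25 (adjusted p = 0.227). Mmp16, a membrane-type MMP, differed between vehicle and sham livers at 24 h by -0.24 (adjusted p = 0.171), with 4 of 5 vehicle arrays below all sham arrays.

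**Figure D4:**
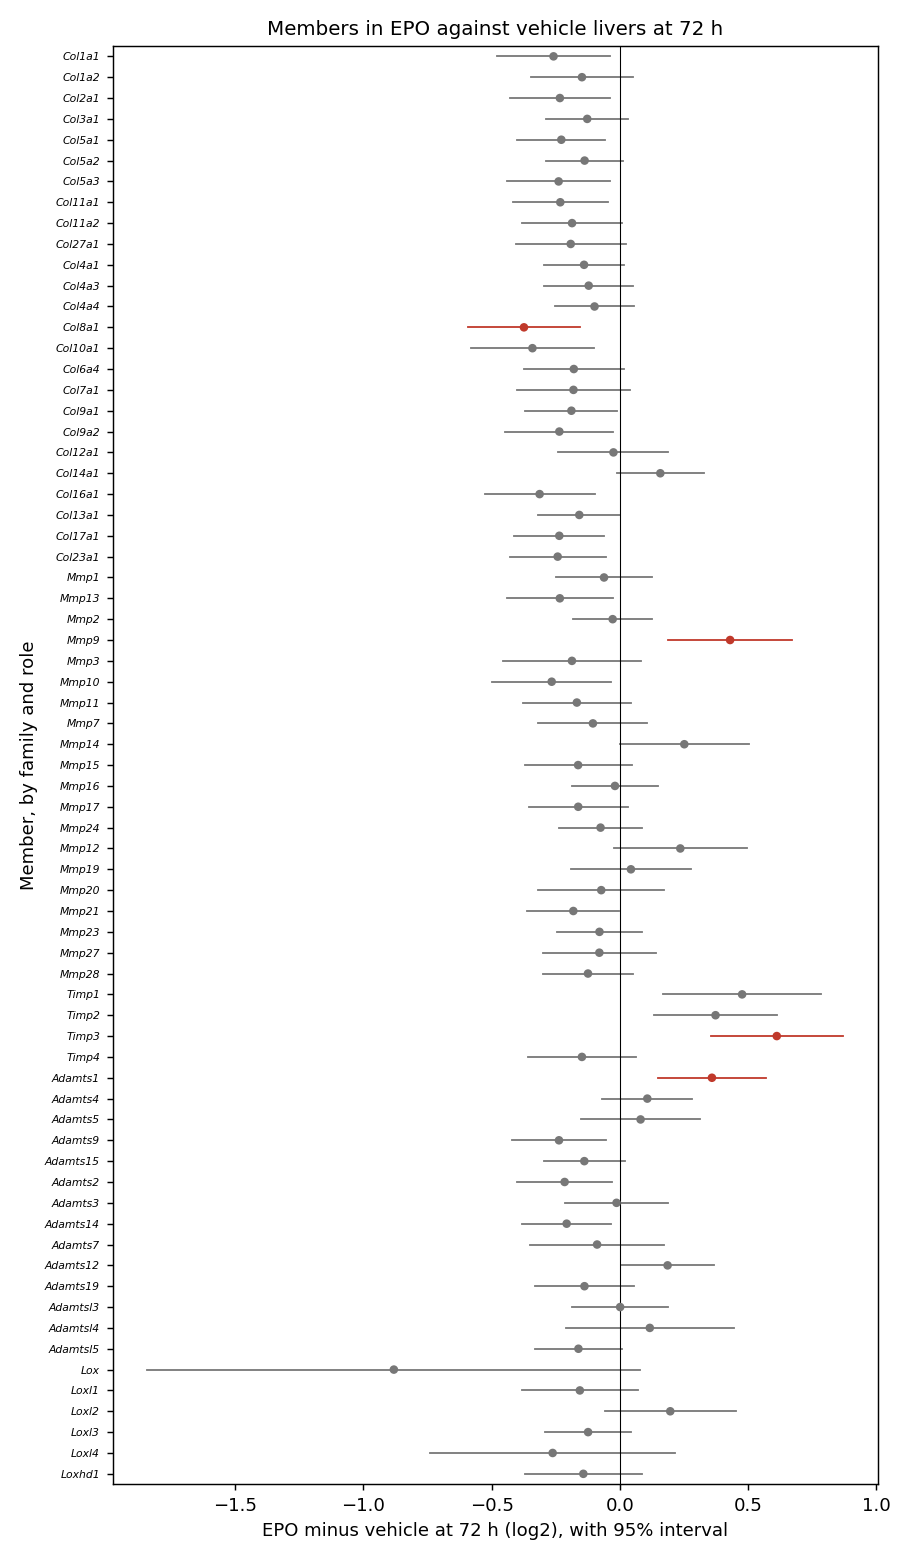
Difference between EPO and vehicle livers at 72 h (horizontal axis, log2, point with 95% interval) for the 69 genes (vertical axis, by family and role), in red where the gene passed. Timp3, Mmp9 and Adamts1 lie to the right and Col8a1 to the left, and most collagen points lie left of 0 without passing.

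Of the 4 inhibitors, 1 passed between EPO and vehicle livers at 72 h (background 2.72%). Timp3, which encodes a matrix-bound inhibitor of MMPs, of ADAMTS proteases and of the TNF-releasing enzyme ADAM17, was higher in EPO than in vehicle livers. Its vehicle arrays read 7.41, 7.06, 7.48, 7.32 and 7.41, its EPO arrays 7.64, 8.18, 7.97, 8.12 and 7.84, and its anakinra arrays 7.57, 7.54, 7.77, 7.72 and 7.79. All 5 EPO arrays and all 5 anakinra arrays lay above all vehicle arrays. The difference between EPO and vehicle was 0.61 (SE 0.13, 1.53-fold, adjusted p = 0.00233), and that between anakinra and vehicle was 0.34 (SE 0.13, adjusted p = 0.454), with the same vehicle arrays in both (0.28 for anakinra without the narrow arrays). EPO and anakinra livers differed by 0.27 (adjusted p = 0.465). Without the narrow arrays the difference between EPO and vehicle was 0.55 (adjusted p = 0.0169), and it passed with any 1 array left out (adjusted p up to 0.0202).

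The vehicle and EPO group means of Timp3 lay on opposite sides of the sham mean at 72 h, and neither difference from sham passed. Sham arrays read 7.43, 7.71, 7.89, 7.45 and 7.85, and 4 of the 5 vehicle arrays at 72 h lay below all of them (-0.33, SE 0.13, adjusted p = 0.396). The EPO arrays differed from sham by 0.28 (adjusted p = 0.293), with 3 of 5 above all sham arrays. At 24 h EPO and vehicle differed by 0.22 (adjusted p = 0.50) and at 7 days by -0.0063. Over the 3 times together Timp3 was higher in EPO livers by 0.27 (SE 0.074, adjusted p = 0.0327). That call was lost without the narrow arrays (adjusted p = 0.0600), with array weights (0.177), with only the groups compared (0.124), and with any 1 of vehicle arrays 3 and 4 at 24 h, 2 at 72 h and 4 at 7 days, or of EPO arrays 3 and 5 at 24 h, 2 and 4 at 72 h and 5 at 7 days, left out (adjusted p up to 0.0748). The F test over the 10 groups (adjusted p = 0.0455) was lost after the further quantile normalization (0.0812) and without the narrow arrays (0.0692).

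Timp1 and Timp2, secreted inhibitors of most MMPs, had positive differences that did not pass. Timp1 read 7.83, 7.30, 7.64, 8.03 and 7.70 in vehicle livers at 72 h and 8.0, 8.22, 8.19, 8.53 and 7.96 in EPO livers, with 3 EPO arrays above all vehicle arrays (0.48, SE 0.15, adjusted p = 0.0801). It passed when vehicle array 4 or EPO array 1 was left out, and was 0.34 (adjusted p = 0.373) without the narrow arrays. Timp2 read 8.15, 7.33, 7.78, 8.04 and 7.79 in vehicle and 8.01, 8.12, 8.20, 8.54 and 8.10 in EPO livers, with 2 EPO arrays above all vehicle arrays (0.37, SE 0.12, adjusted p = 0.0762). It passed when vehicle array 1 or 4 or EPO array 1 was left out, and was 0.20 (adjusted p = 0.585) without the narrow arrays. Timp4, the inhibitor best known from the heart, differed by -0.15 (adjusted p = 0.425), and by 0.016 without the narrow arrays.

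Timp1 is known as a marker of injury in the liver, and its differences from sham in vehicle livers were negative at each time without passing. Its sham values were 7.77, 7.83, 8.0, 7.94 and 8.44, and its vehicle values at 24 h were 7.90, 7.89, 6.91, 7.59 and 7.53. The 3 lowest vehicle arrays lay below all sham arrays, and the lowest was the narrow array (-0.43, SE 0.15, adjusted p = 0.177). Without that array the difference was -0.27. Timp1 differed from sham by -0.29 at 72 h (adjusted p = 0.414) and by -0.15 at 7 days (adjusted p = 0.858).

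**Figure D5:**
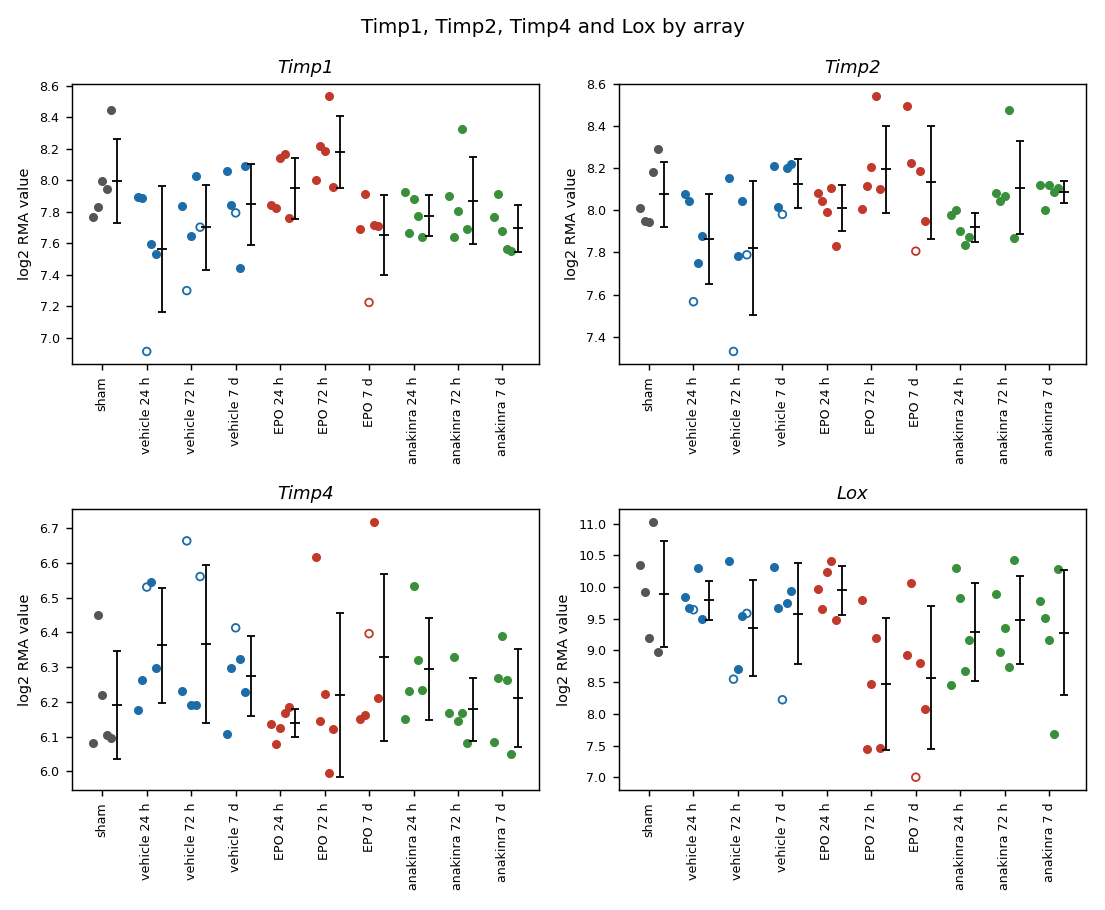
Log2 RMA values (vertical axes) of Timp1, Timp2, Timp4 and Lox, 1 point per array in each of the 10 groups (horizontal axes), with the mean and standard deviation beside the points and open circles for the narrow arrays. The lowest arrays of Timp1 (6.91) and Timp2 (7.33) are narrow vehicle arrays, and Lox spreads from 7.00 to 11.02.

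Adamts9 had the smallest p of the 69 genes in the F test over the 10 groups (adjusted p = 2.56e-07). It encodes a secreted protease that cleaves versican and aggrecan, proteoglycans of the matrix. Sham arrays read 6.95, 6.87, 7.09, 7.01 and 7.16. At 24 h the vehicle arrays read 6.51, 6.43, 6.69, 6.66 and 6.59, the EPO arrays 6.68, 6.42, 6.42, 6.57 and 6.60, and the anakinra arrays 7.05, 6.77, 6.61, 6.59 and 6.81. All vehicle and all EPO arrays lay below all sham arrays, and 4 of the 5 anakinra arrays did. Vehicle livers were lower than sham by 0.44 on the log2 scale (-0.44, SE 0.092, adjusted p = 0.00780) and EPO livers by 0.48 (-0.48, SE 0.092, adjusted p = 0.00599). Anakinra livers differed by -0.25 (SE 0.092, adjusted p = 0.414), and from vehicle livers by 0.19 (adjusted p = 0.901), and EPO livers differed from vehicle livers by -0.040 (adjusted p = 0.855).

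At 72 h vehicle livers differed from sham by 0.051 (adjusted p = 0.787) and at 7 days by 0.13 (adjusted p = 0.800). The vehicle arrays were 7.01, 7.05, 7.13, 7.12 and 7.04 at 72 h and 7.13, 6.97, 7.21, 7.22 and 7.19 at 7 days, all above every vehicle array of 24 h, and the F test over the 3 vehicle groups passed (adjusted p = 0.00196). The EPO arrays at 72 h, at 6.84, 6.63, 7.16, 6.56 and 6.98, spread over both ranges and differed from vehicle by -0.24 (adjusted p = 0.147). Both calls against sham at 24 h held with any 1 array left out (adjusted p up to 0.0389 for vehicle and 0.0325 for EPO) and without the narrow arrays (0.00949 and 0.00606). The mean of Adamts9 lies below the median level of all genes, so it was not tested where dim genes were removed.

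Adamts1, a close relative that also cleaves aggrecan and versican, passed at 72 h. Sham arrays read 8.11, 8.26, 8.54, 8.19 and 7.93, the vehicle arrays of 72 h 7.96, 8.01, 8.05, 7.89 and 7.82, and the EPO arrays of 72 h 8.23, 8.44, 8.35, 8.47 and 8.05. EPO livers were higher than vehicle livers by 0.36 (SE 0.10, 1.28-fold, adjusted p = 0.0470), with 4 of 5 arrays above all vehicle arrays, and differed from sham by 0.10 (adjusted p = 0.784). Vehicle livers differed from sham by -0.26 at 24 h (adjusted p = 0.225) and by -0.26 at 72 h (adjusted p = 0.396). The call against vehicle was lost with array weights (adjusted p = 0.187), after the further quantile normalization (0.103), without the narrow arrays (0.34, adjusted p = 0.214), with dim genes removed (0.0524) and with only the groups compared (0.226). It was lost too with any 1 of vehicle arrays 1, 2, 4 and 5 or of EPO arrays 2, 3 and 4 left out (adjusted p up to 0.147).

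Adamts7, which cleaves the cartilage protein COMP and has been tied to vessel wall remodelling, passed in a single comparison. Sham arrays read 7.72, 7.74, 7.77, 8.06 and 7.70 and the anakinra arrays of 7 days 8.10, 8.04, 8.55, 8.45 and 8.54. All but the second anakinra array lay above every sham array, and the difference was 0.54 (SE 0.13, 1.45-fold, adjusted p = 0.0222). It did not pass against vehicle at 7 days (0.36, adjusted p = 0.506), and it was lost against sham with any 1 of sham arrays 1, 2 and 5 or of anakinra arrays 3, 4 and 5 left out (adjusted p up to 0.0824).

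The procollagen N-propeptidases Adamts2, Adamts3 and Adamts14, which trim the ends of fibrillar procollagens, gave no call. They differed by -0.21 to -0.012 between EPO and vehicle at 72 h, and the Adamts3 probe that was not kept differed by 0.051. Adamtsl4, an ADAMTS-like protein without a protease domain that binds fibrillin, had the lowest of its 10 group means in sham livers, at 8.14 ± 0.15 (mean ± SD, n = 5), and the highest in EPO livers at 24 h, at 8.65 ± 0.16. All 5 EPO arrays then lay above all sham arrays (0.52, adjusted p = 0.210). Vehicle livers differed from sham by 0.37 at 24 h (adjusted p = 0.276), 0.31 at 72 h (0.414) and 0.38 at 7 days (0.757).

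Lox, the enzyme that starts collagen cross-linking, had the largest residual standard deviation of the 69 genes, and its groups overlapped. Sham arrays read 10.35, 9.93, 9.20, 11.02 and 8.97. The EPO arrays read 9.96, 9.65, 10.24, 10.41 and 9.48 at 24 h, 9.80, 7.45, 8.47, 9.20 and 7.47 at 72 h and 8.93, 10.06, 7.00, 8.80 and 8.07 at 7 days. The later EPO groups reached lower than any sham array, with 3 of 5 arrays below all sham arrays at 72 h and 4 of 5 at 7 days, and they overlapped with sham. The differences were -1.42 at 72 h (SE 0.48, 95% interval -2.38 to -0.45, adjusted p = 0.0937) and -1.32 at 7 days (SE 0.48, 95% interval -2.28 to -0.36, adjusted p = 0.115). Against vehicle they were -0.88 (adjusted p = 0.287) and -1.0 (adjusted p = 0.986). Lox passed against sham when EPO array 1 was left out at 72 h, and when EPO array 2 was left out at 7 days. With vehicle the differences from sham were -0.10 at 24 h, -0.53 at 72 h and -0.32 at 7 days.

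The relatives of Lox gave no call in any comparison, beside at most 5.67% of all genes in each. Loxl1, which cross-links elastin, differed by -0.16 between EPO and vehicle at 72 h (adjusted p = 0.428) and Loxl2, which acts on type IV collagen, by 0.20 (adjusted p = 0.372), the latter 0.018 without the narrow arrays. Loxl2 was 7.13, 7.05, 7.13, 7.11 and 7.33 in sham and 7.20, 6.75, 6.59, 7.08 and 6.57 in vehicle livers at 24 h, and 3 vehicle arrays lay below all sham arrays (-0.31, adjusted p = 0.237, and -0.25 without the narrow array). Loxl4 had its highest group mean in EPO livers at 7 days, at 9.25 ± 0.51, against 8.64 ± 0.24 in sham livers (mean ± SD, n = 5 each), a difference of 0.62 (adjusted p = 0.141). Loxhd1, which carries the symbol stem only and is no lysyl oxidase, differed by -0.14 between EPO and vehicle at 72 h.

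The signs and medians of the 69 differences, whether or not a gene passed, were as given here. Between vehicle and sham, 56 of 69 differences were positive at 24 h, 59 at 72 h and 56 at 7 days, with medians of 0.12, 0.12 and 0.070 beside 0.037, 0.038 and 0.016 for all genes. Between EPO and vehicle, 52 of 69 were negative at 24 h and 54 at 72 h, with medians of -0.12 and -0.14 beside -0.025 and -0.026, and 32 of 69 at 7 days (median 0.0073). Between anakinra and vehicle the medians were -0.076, -0.12 and -0.054, beside -0.017, -0.029 and -0.024 for all genes. These comparisons share the vehicle arrays. Without the narrow arrays the medians for vehicle against sham were 0.060 at 24 h and 0.026 at 72 h, those for EPO against vehicle -0.059 and -0.047, and those for anakinra against vehicle -0.018 and -0.036. A further quantile normalization gave -0.090 for EPO against vehicle at 72 h.

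Other genes of the pathway, from 4 lists, are read beside the share of all genes that passed between EPO and vehicle at 72 h, 2.72% (316 higher and 79 lower of 14506). Of 21 measured genes of collagen modification and secretion, 0 passed between vehicle and sham at any time by limma (background 0.827%, 0% and 0%). Between EPO and vehicle at 72 h 1 passed: P3h2, a prolyl 3-hydroxylase of type IV collagen, was higher by 0.55 (SE 0.11, adjusted p = 0.00117). Of 36 other matrix proteins, Fn1, fibronectin, was higher in vehicle than in sham livers at 24 h by 0.27 (adjusted p = 0.0196), and Thbs1, thrombospondin-1, was higher in EPO than in vehicle livers at 72 h by 0.59 (adjusted p = 0.0133). Of 22 genes of the plasmin system and other proteases and inhibitors, 3 were higher in EPO than in vehicle livers at 72 h and 0 lower. They were Plau, the urokinase that activates plasminogen (0.50, adjusted p = 8.48e-05), Serpinb2, its inhibitor PAI-2 (0.77, adjusted p = 0.000738), and Adam9, a membrane protease (0.29, adjusted p = 0.0173). For genes of the 4 lists, values without the narrow arrays are not given here. How far these calls rest on the narrow vehicle arrays is not shown.

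Of 27 genes of TGF-beta and PDGF signalling, the main drivers of collagen synthesis in stellate cells, Pdgfra, a PDGF receptor, was higher in EPO than in vehicle livers at 72 h (0.33, adjusted p = 0.0108) and none was lower. Smad7, the inhibitor of TGF-beta signalling, was lower in EPO than in sham livers at 24 h (-0.49, adjusted p = 0.0271), 72 h (-0.53, adjusted p = 0.00201) and 7 days (-0.44, adjusted p = 0.0224). The background for EPO against sham was 0.434%, 3.46% and 2.86% at these times. Against vehicle Smad7 did not pass as lower at any of them. Its differences from sham in vehicle and anakinra livers are not given here, so a difference particular to EPO is not shown. At 7 days 0 genes of the 4 lists passed between EPO and vehicle by limma (background 0.365%).

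The cell type markers beside the EPO results at 72 h are given here. Of all 14506 genes, 316 were higher and 79 lower between EPO and vehicle then (2.72%). Of 23 markers of stellate cells and fibroblasts 2 were higher (Hgf and Pdgfra), and their mean level was 7.73 to 7.96 in EPO arrays, 7.70 to 7.79 in vehicle and 7.70 to 7.85 in sham arrays. Of 12 Kupffer cell markers 8 were higher, with mean levels of 9.38 to 9.60 in EPO and 8.52 to 9.29 in vehicle arrays. Of 10 sinusoidal endothelial markers 3 were higher, with 9.53 to 9.84 against 9.15 to 9.57, and of 15 erythroid markers 12 were higher, with 8.75 to 10.19 against 7.10 to 8.21. Of 8 cholangiocyte markers 1 was higher (Tspan8), with mean levels of 6.39 to 6.55 in EPO and 6.18 to 6.39 in vehicle arrays. The 12 markers of mesothelium, muscle, adipose tissue and pancreas had mean levels of 6.26 to 6.60 in EPO and 6.35 to 6.62 in vehicle arrays. In sham arrays the mean levels were 9.03 to 9.39 for Kupffer cell, 9.25 to 9.48 for endothelial and 7.12 to 7.66 for erythroid markers. They were 6.19 to 6.46 for cholangiocyte markers and 6.36 to 6.51 for the last list. For no cell type are marker calls without the narrow vehicle arrays given here. The part of these cells in the levels of Timp3, Adamts1 and Col8a1 was not tested.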

How the data were processed

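The deposited table held 29214 probes in 50 arrays as log2 values, made by the authors by RMA (robust multi-array averaging) with oligo, per the submitters' processing notes. No version and no genome build is given in the sources used here. RMA corrects background, normalizes by quantiles and summarises each probe set, so it can shrink small differences. Of the probes, 15310 had 1 gene symbol, 323 several and 13581 none. The highest-mean probe per symbol was kept (14506 genes), and 3 of the 69 matrix genes had several probes. All 69 matched RefSeq by gene ID with the current symbol.

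Limma 3.58.1 in R 4.3.3 (lmFit, eBayes) fitted 1 mean per group over 50 arrays, with 40 residual degrees of freedom. P-values are two-sided, and 95% intervals are limma's moderated ones. Precision is limited by the number of arrays. Array correlations lay between 0.960 and 0.996, and no pair of arrays was identical. The genes named were 27 listed by symbol, of which 21 were measured, those that passed, and otherwise the 3 with the smallest p. Of the listed genes, Col4a2, Col6a1, Col6a3, Col15a1, Col18a1 and Adamts13 had no probe under their symbol, so they were not analysed here. The genes, lists and tests were chosen with earlier results of these data known. Alternatives were array weights, eBayes trend and robust options, further quantile normalization, removing narrow arrays or dim genes, averaging probes, a replicate block, fitting only the groups compared, and leaving out each array.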

Additional observations from a re-analysis of the deposited data

Results flagged for a closer look

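Adamts7 had a sham array far from the others: array 4 read 8.06, and the next highest sham array read 7.77, a gap of 0.785 of the whole sham range. The difference between anakinra and sham livers at 7 days includes that array. The limit used to single out a gap is passed by chance in about 1 in 20 groups, and many groups were screened.

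Adamts9 differed between times within the vehicle groups (limma F test, adjusted p = 0.00196), with the 5 arrays of 24 h below all 10 of 72 h and 7 days. The adjusted p was at most 0.0185 in every alternative in which Adamts9 was tested.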

How the results depend on the processing

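The count of matrix genes that passed between EPO and vehicle at 72 h was 4, and fell to 2 with array weights, 2 after further quantile normalization, 1 without the narrow arrays, 1 with dim genes removed and 1 with only the groups compared. It was 1 to 16 with 1 array left out, and reached 16 without EPO array 1 and 9 without vehicle array 4. Timp3 passed in every one of these. Over the 3 times the count was 1 and became 0 with array weights, without the narrow arrays and with only the groups compared (0 to 7 with 1 array left out). With dim genes removed, which removes Adamts9 and Mmp9, it was 0 for vehicle against sham at 24 h, EPO against sham at 24 h and at 72 h, EPO against anakinra at 72 h and the F test of vehicle over time, and 1 for the F test over the 10 groups. Array weights gave 2 for EPO against sham at 24 h, 6 at 72 h, 1 for anakinra against sham at 24 h and at 72 h, 3 at 7 days, 2 for EPO against anakinra at 72 h and 9 for the F test over the 10 groups. Fitting only the groups compared gave 2 for EPO against sham at 24 h, 0 at 72 h and 0 for EPO against anakinra at 72 h, and further quantile normalization gave 2 for EPO against sham at 72 h. With 1 array left out the counts were 1 to 4 for EPO against sham at 72 h, 0 to 1 at 7 days, 0 to 1 for anakinra against sham at 7 days and 1 to 2 for EPO against anakinra at 72 h. The other counts stayed within 1.5 times of their value, and the causes were not tested. The shares of all genes that passed under each of these settings are not given here. These counts are therefore not read as changes particular to the matrix genes.

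Among the named genes run under these alternatives, the differences that changed sign had not passed. For vehicle against sham at 24 h they were Col3a1 (0.039 after quantile normalization, -0.032 to 0.020 with 1 array left out), Col4a1 (-0.0027 with array weights), Col14a1 (-0.034 with array weights, -0.0029 without the narrow arrays, -0.056 to 0.040), Mmp2 (-0.028 to 0.051), Mmp9 (-0.0067, -0.066 and -0.050 with array weights, quantile normalization and no narrow arrays, -0.050 to 0.062), Mmp12 (-0.021 after quantile normalization, -0.0048 to 0.11), Mmp19 (-0.0057 with array weights, -0.033 to 0.098), Timp3 (0.11 with array weights, 0.015 without the narrow arrays, -0.18 to 0.015) and Lox (-0.33 to 0.18). For EPO against vehicle at 72 h they were Mmp2 (0.015 with array weights, 0.0011 without the narrow arrays, -0.083 to 0.011), Mmp19 (-0.048, -0.033 and -0.15 with array weights, quantile normalization and no narrow arrays, -0.031 to 0.13) and Timp4 (-0.15 as reported, 0.016 without the narrow arrays).

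The groups share replicate numbers, and the labels do not say whether these mark a pairing, so they were not used as pairs. Deviations of same-numbered arrays correlated by 0.0125 on average (-0.58 to 0.72), and those of other-numbered arrays by -0.0014. Of 50 arrays, 15 correlated best with their own number. The number that chance would give was not worked out, and whether same-numbered arrays share a factor was not tested. With a replicate block, the count for EPO against vehicle at 72 h was 3, that for EPO against sham at 72 h was 2, and Col8a1 (adjusted p = 0.0576) and the F test of Timp3 (0.0567) no longer passed. Signal over background was not analysed here, so how far dim probes limit detection was not tested.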
